A study of Homo sapiens with 9 samples.

Results

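The abundant long intergenic noncoding RNAs (lincRNAs) of HCT116 cells were described across 3 groups of libraries. Members were chosen by gene class and level: the class lincRNA in the deposited annotation and a mean of at least 100 counts over the 9 libraries, without CRLM1 itself, HOTAIR, HOTTIP, GAS5, ZFAS1 and the SNHG genes. Of 31558 genes in the table, 3563 were lincRNAs, 129 of these reached 100 counts, and 124 remained once SNHG19, SNHG8, SNHG15, SNHG25 and CRLM1 were left out. Just inside the limit were MIR222HG (mean 102.1 counts), LINC01405 (100.4) and RP11-452F19.3 (100.4), and just outside it LINC00941 (97.89), RP11-399K21.11 (94.89) and OSER1-AS1 (94.33). Because the level chose the members, their levels are given as a description.

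HCT116 is an established human colorectal carcinoma line that grows as an epithelium. All 3 groups were stable lines made by lentiviral delivery of the same GFP and puromycin resistance plasmid and kept under puromycin selection, and no parental cells are compared here. The paper itself calls the cells of this RNA-seq transfected and the 3 samples of a group biological replicates. Its methods name the lentiviral vector with GFP and puromycin resistance for expressing CRLM1, and not for the other groups. CRLM1-OE cells carried the lncRNA CRLM1, Anti cells carried its antisense strand, and Ctrl cells carried the plasmid without an insert, with 3 libraries per group. Whether a line was a clone or a pool of infected cells was not stated, and if each group is 1 line, line and insert cannot be told apart and p-values measure only the spread between these libraries.

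Long noncoding RNAs are transcripts without a long reading frame, most of them made by RNA polymerase II, capped, spliced and polyadenylated like messenger RNA. Some act in the nucleus as scaffolds, as NEAT1 does in paraspeckles and MALAT1 does at nuclear speckles, while others act in the cytoplasm as decoys for proteins, as NORAD does. Others are known as precursors of microRNAs, or were annotated as noncoding and later found to encode a small protein. Most lincRNAs are made at far lower levels than messenger RNA, so the abundant members are those that RNA sequencing measures best.

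Library totals ranged from 33302292 to 44514692 counts, so that the floor of 3 counts stood between 0.0674 and 0.0901 CPM (the count scaled to library size), which covers counting error only. CRLM1 had 38704, 32751 and 35726 counts in the CRLM1-OE libraries, 0 in each Ctrl library and 1951, 1777 and 1540 in the Anti libraries. Of 8 epithelial markers, 6 exceeded 1 CPM in every library and 2 (VIL1 and CEACAM5) stayed below it in every library. Of 7 markers of other cells, CD3E had no value, COL1A1 ranged from 9.14 to 18.1 CPM and the rest stayed below 1 CPM in every library.

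Sequences were read first for the members whose sequence carries what they are known for. NORAD (LINC00657 in the deposited annotation) is a cytoplasmic RNA known for repeats of the element TGTANATA, to which proteins bind. Its transcript of 5401 nt, a single exon on the reverse strand of chromosome 20 (GRCh38, 36045618 to 36051018), held 15 matches, the most of any member, and NEAT1 followed with 6 in 22743 nt. At the open position N, 10 matches had T, 4 had A and 1 had C. At least 1 match was found on the transcript strand of 20.7% of the 116 members with a sequence and of 11.5% of 18824 lncRNA genes in GENCODE 44, with 0.137 and 0.106 matches per kb. NORAD held 15 of the members' 53 matches, and without it the members had 0.0998 per kb, below the value of all lncRNA genes. Windows from the transcript are printed for each base found at N, with the element in capitals and 8 bases on each side.
NORAD element 2, chr20:36049814-36049821: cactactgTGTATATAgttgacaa
NORAD element 3, chr20:36049713-36049720: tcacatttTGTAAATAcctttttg
NORAD element 5, chr20:36049503-36049510: gtatatagTGTACATAaaggacag
NORAD element 11, chr20:36047982-36047989: ccctactgTGTATATAgcggacaa

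Mature microRNAs with a RefSeq entry used here (GRCh38.p14) lay on the same strand within the span of 8 members, 16 in all. The count is not complete. GENCODE 44 also places the microRNA genes MIR1204, MIR1206 and MIR1207 in PVT1 and MIR612 in NEAT1, on the same strand. The printed sequences are those of the members that carry a microRNA in their name and of LINC00152 (CYTOR in current annotation), with the seed, bases 2 to 8, in capitals. The microRNAs miR-221-3p and miR-222-3p of MIR222HG share the seed GCUACAU, and the same microRNA, miR-4435, lies in both MIR4435-2HG and CYTOR.
miR-221-3p in MIR222HG, chrX:45746180-45746202: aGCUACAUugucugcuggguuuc
miR-222-3p in MIR222HG, chrX:45747036-45747056: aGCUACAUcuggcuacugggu
miR-210-3p in MIR210HG, chr11:568112-568133: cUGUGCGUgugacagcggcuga
miR-4435 in MIR4435-2HG, chr2:111321061-111321082: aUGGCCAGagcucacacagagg
miR-4435 in CYTOR, chr2:87629764-87629785: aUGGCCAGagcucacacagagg
The mature microRNAs themselves are too short for these libraries, so values below are those of the host transcripts.

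CYTOR and MIR4435-2HG, both on chromosome 2, are partial copies that share stretches of sequence. Of the stretches of 151 nt, the read length, in the GENCODE 44 transcripts of CYTOR, 23.7% also occur in a transcript of MIR4435-2HG, and the shared stretches were 11.7% of those of MIR4435-2HG. Only uniquely mapped reads were counted, so counts of both genes leave out reads from such stretches and their split between the copies is uncertain. Their RefSeq promoter windows, from 250 bases before to 50 after the start, share an unbroken run of 241 bases, at positions 1 to 241 in CYTOR and 60 to 300 in MIR4435-2HG. Both windows are printed because the copies share them, with matches to the AP-1 motif TGANTCA in capitals.
CYTOR promoter, forward strand, chr2:87455177-87455476: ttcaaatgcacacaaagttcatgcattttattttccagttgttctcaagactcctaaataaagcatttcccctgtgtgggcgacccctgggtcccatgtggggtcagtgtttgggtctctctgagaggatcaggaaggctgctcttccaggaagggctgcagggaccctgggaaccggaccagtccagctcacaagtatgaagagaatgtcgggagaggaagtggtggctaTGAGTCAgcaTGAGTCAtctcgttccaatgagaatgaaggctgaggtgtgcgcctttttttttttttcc
MIR4435-2HG promoter, reverse strand, chr2:111495112-111495411: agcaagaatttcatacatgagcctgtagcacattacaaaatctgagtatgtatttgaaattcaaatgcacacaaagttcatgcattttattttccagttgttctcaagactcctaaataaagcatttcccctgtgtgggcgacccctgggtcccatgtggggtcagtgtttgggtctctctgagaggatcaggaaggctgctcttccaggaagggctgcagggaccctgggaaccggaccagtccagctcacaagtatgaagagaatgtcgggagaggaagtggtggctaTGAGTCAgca

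LUCAT1 is a lncRNA known as a target of the oxidative stress factor NRF2, and was the member with the most negative log2 fold change in both comparisons with CRLM1-OE. Its promoter window, on the reverse strand of chromosome 5, held a match to the antioxidant response element TGACNNNGC on the opposite strand at positions 197 to 205 and an AP-1 match within it at positions 199 to 205, both in capitals below.
LUCAT1 promoter, reverse strand, chr5:91314353-91314652: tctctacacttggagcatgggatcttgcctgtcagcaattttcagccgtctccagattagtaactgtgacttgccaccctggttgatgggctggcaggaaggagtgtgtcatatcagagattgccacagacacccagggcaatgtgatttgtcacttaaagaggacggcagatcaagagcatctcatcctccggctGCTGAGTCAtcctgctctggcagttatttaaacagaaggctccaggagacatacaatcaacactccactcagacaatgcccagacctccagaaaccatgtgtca
Over both strands, TGACNNNGC matched in 13.3% of 35116 RefSeq promoters and in 14 of the 65 members with a promoter window, and TGANTCA in 7.71% of the promoters and in 11 of the 65. The percentages count single windows, whereas a member with several windows counts if any of them matches, so the values are not in the same unit. A match describes the letters only.

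Counts were concentrated in few members. The 5 with most counts held 31.7% of all counts of the 124, the 10 with most held 47.0%, 11 members had a mean of at least 1000 counts and 60 stayed under 200, with a median of 204.6. PVT1, the neighbour of MYC on chromosome 8, was first with a mean of 4676 counts, followed by NORAD with 4404 and RP11-54H7.4 (LINC03061) with 3956. Per length, the mean level over the 9 libraries ran from 0.302 to 25.9 FPKM with a median of 2.22, and PVT1, RP11-54H7.4 and NORAD again led with 25.9, 21.8 and 19.2 FPKM. The long nuclear RNAs stood lower on this scale, MALAT1 at 4.51 and NEAT1 at 2.54 FPKM. The libraries were made from RNA selected by poly(A), and how much of either RNA that selection missed was not tested.

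The order of the levels was not the same in the 3 groups. PVT1 had the highest FPKM in CRLM1-OE (26.7 ± 0.657, SD, n = 3) and in Ctrl (28.4 ± 0.962). In Anti, RP11-54H7.4 (24.5 ± 0.322), NORAD (23.7 ± 0.613) and PVT1 (22.5 ± 0.509) stood close together. In Ctrl, NORAD stood at 13.6 ± 0.337 FPKM, below EPB41L4A-AS1, AC004791.2, RP11-297P16.4, CYTOR and LINC01057, with means of 16 to 18.2 FPKM. Of these, AC004791.2 varied most between the Ctrl libraries, at 16.9 ± 2.09 FPKM.

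**Figure D1:**
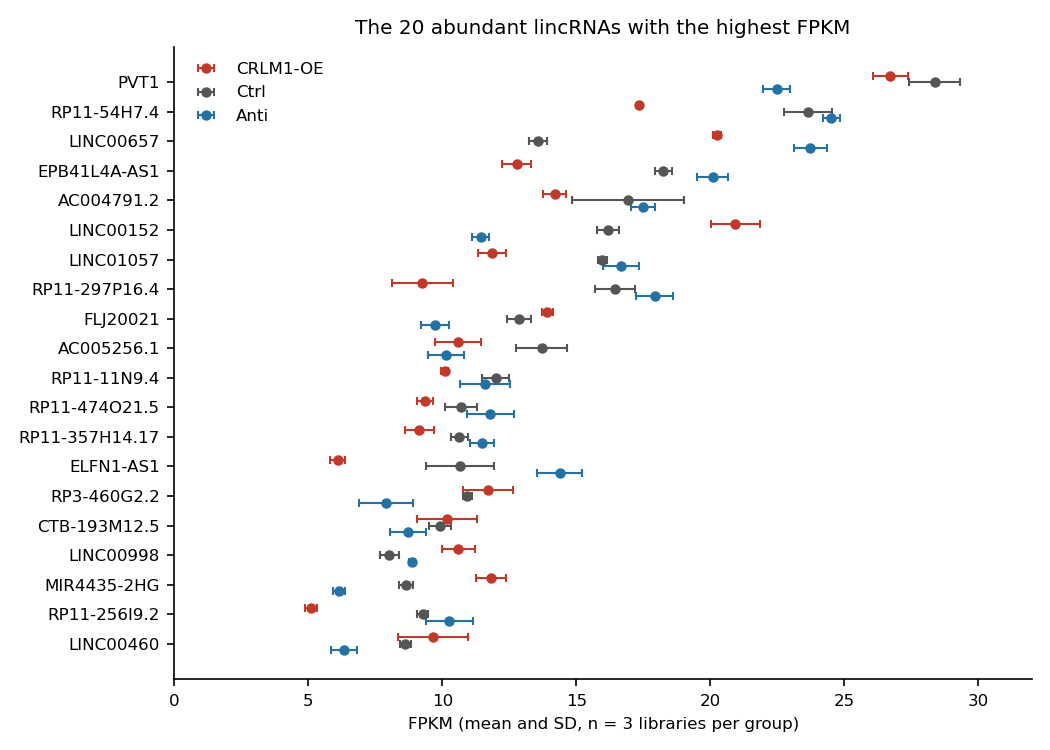
Level in FPKM (x axis, linear, mean and SD of 3 libraries) of the 20 members with the highest mean FPKM (y axis), in CRLM1-OE (red), Ctrl (grey) and Anti (blue). PVT1 led in CRLM1-OE and Ctrl at 26.7 and 28.4 FPKM, whereas NORAD (LINC00657) moved from 13.6 FPKM in Ctrl to 23.7 in Anti.

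Together the members took 0.1539% ± 0.0013 of all counts for CRLM1-OE, 0.1421% ± 0.000473 for Ctrl and 0.1552% ± 0.000781 for Anti (SD, n = 3). The share was higher in every CRLM1-OE library and every Anti library than in any Ctrl library, and the two-sided exact permutation p was 0.1 for each, the smallest that 3 against 3 can give. The shares of CRLM1-OE and Anti overlapped (exact permutation p = 0.2). These shares depend on the library total and are not corrected by scaling factors. The TMM factors (trimmed mean of M values) were 1.046 to 1.053 in CRLM1-OE, 0.945 to 0.955 in Ctrl and 1 to 1.01 in Anti. Division by them puts every CRLM1-OE library below every Ctrl library, so the order of these groups depends on the scaling. The members were chosen by these same counts, so the p-values are a description.

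Replicates of a member lay close together. The median SD of log2 CPM within a group was 0.148 for the 60 members of 100 to 200 counts, 0.121 for the 42 of 200 to 500 and 0.0686 for the 22 above 500. Protein-coding genes of the same levels had 0.152, 0.105 and 0.0527.

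CRLM1-OE was compared with Ctrl to ask which lncRNAs differ when CRLM1 is overexpressed. The edgeR quasi-likelihood test was run on all 29846 genes with a count, and a member is said to rise or fall where the Benjamini-Hochberg adjusted p over all of them was at most 0.05. Of the 124 members, 42 rose (33.9%) and 31 fell (25.0%). Over all genes tested 15.0% rose and 16.8% fell, and over the 11702 genes of any class with a mean of at least 100 counts, 28.8% rose and 39.1% fell. That second background shares the members' lower limit but not their levels, since 60 of the 124 members and 1009 protein-coding genes lay between 100 and 200 counts, and 22 members and 6805 protein-coding genes above 500, where the replicate spread is smaller. Both a 2-fold change and the adjusted p were met upward by 5 members (4.03%), against 2.5% of all genes tested and 1.31% of genes with 100 counts, and downward by 2 (1.61%), against 0.915% and 0.701%. With library totals in place of TMM factors (the main scaling, trimmed mean of M values), the 2-fold calls were 9 upward and 1 downward and the calls by adjusted p alone were 56 and 24, and the all-gene median of the log2 values moved from 0.0168 to 0.157. Read beside these medians, the median of the members was 0.0686 under TMM and 0.21 under totals. For genes with 100 counts it was -0.0477 and 0.0935. The 102 members with at least 100 counts in every group had a median of -0.00609 under TMM, and 29.4% of them rose and 27.5% fell by adjusted p alone. No overlap between the groups was seen in 45 members with CRLM1-OE higher, against 18.3% of all genes and 30.8% of genes with 100 counts, and in 34 with CRLM1-OE lower, against 19.3% and 41.2%. In such libraries a smaller number of cells that make an RNA and less RNA per cell cannot be told apart.

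Of the 124, 22 had a mean under 100 counts in at least 1 group, 4 of them for CRLM1-OE, 15 for Ctrl and 10 for Anti. Such members passed the limit through the groups where they were high. Of those called at 2-fold against Ctrl, RP11-7K24.3, RP11-18H21.1 and LINC00265 were under 100 in Ctrl and LINC01405 in CRLM1-OE. Of those called against Anti, RP11-7K24.3 and RP11-554I8.2 were under 100 in Anti, and LINC01405 and CCAT1 in CRLM1-OE. For these members the rule and the fold change rest on the same counts, so their values are a description. Among the 102 with at least 100 counts in every group, 2 were called 2-fold upward against Ctrl (1.96%) and 1 downward (0.98%). The shares of genes with 100 counts were 1.31% and 0.701%. Against Anti, 2 of the 102 were called upward (1.96%, beside 1.81%) and 7 downward (6.86%, beside 2.51%). By adjusted p alone, 35.3% of the 102 rose and 34.3% fell against Anti.

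CRLM1-OE was then compared with Anti, which carries an insert of the same gene in the other orientation. By adjusted p alone 48 members rose (38.7%) and 39 fell (31.5%), against 17.1% and 18.5% of the 30183 genes tested and 33.8% and 40.4% of genes with 100 counts. At 2-fold, 4 rose (3.23%, against 3.09% of all genes and 1.81% of genes with 100 counts) and 9 fell (7.26%, against 2.56% and 2.51%). Library totals gave 7 and 6 at 2-fold and 51 and 34 by adjusted p alone. Groups did not overlap in 48 members with CRLM1-OE higher (20.1% of all genes, 35.0% of genes with 100 counts) and in 42 with CRLM1-OE lower (21.0% and 42.5%). This comparison shares the CRLM1-OE libraries with the first, and its values are given beside it.

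Anti was compared with Ctrl as the comparison of both control lines. No member was called at 2-fold by edgeR or by the Wald test of DESeq2, while 60 (48.4%) had an unadjusted edgeR p under 0.05, against 29.8% of all genes tested and 62.5% of genes with 100 counts. By adjusted p alone edgeR called 28 upward and 22 downward and DESeq2 19 and 18. Over the 29714 genes tested, 0.683% were called at 2-fold upward and 0.38% downward (0.0855% and 0.0342% of genes with 100 counts), and 11.5% and 12.2% by adjusted p alone. Among genes with 100 counts the shares by adjusted p alone were 25.0% and 28.8%. Groups did not overlap in 32 members with Anti higher (16.9% of all genes, 32.4% of genes with 100 counts) and 23 with Anti lower (14.0% and 28.9%). Library totals gave 38 upward and 17 downward by adjusted p alone, with the median of all genes at 0.109 in place of 0.00466.

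**Figure D2:**
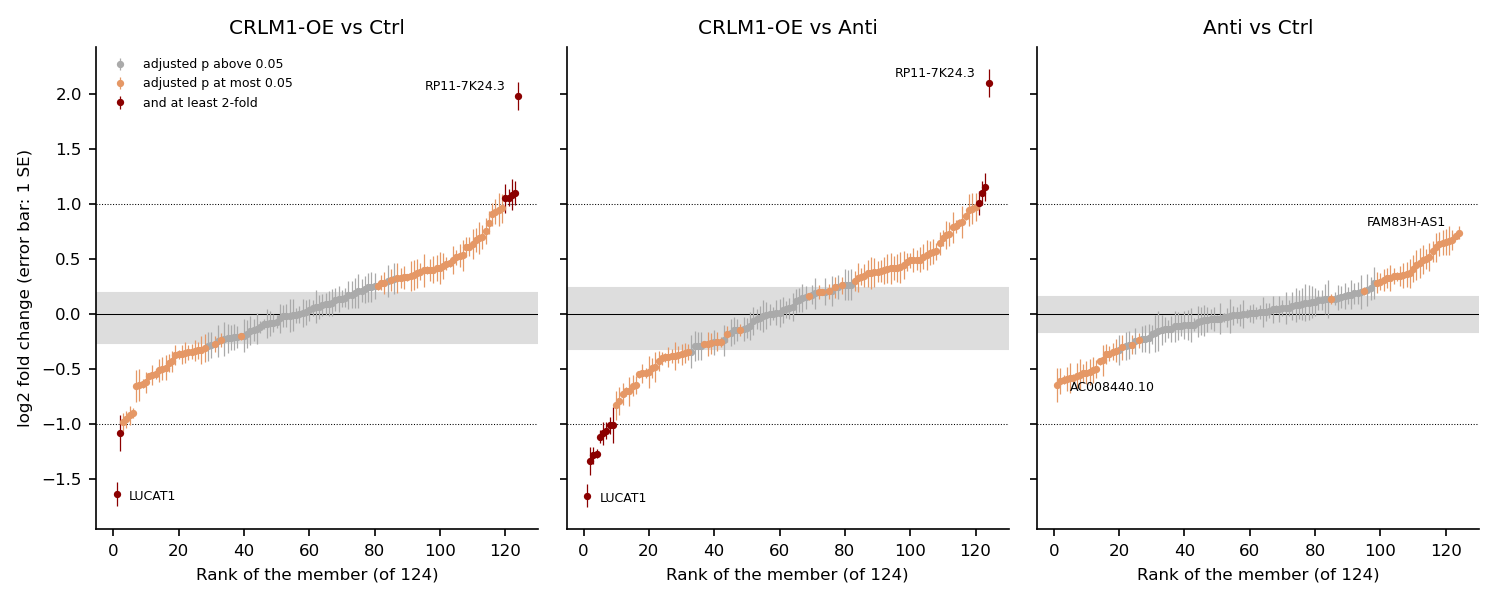
log2 fold change (y axis, error bar 1 SE) of the 124 members ranked within each comparison (x axis), with the middle 50% of the genes of at least 100 counts as a grey band, dotted lines at 2-fold and the lowest and highest member labelled. Dark red points were called at 2-fold and adjusted p of at most 0.05: 7 in CRLM1-OE against Ctrl, 13 in CRLM1-OE against Anti and 0 in Anti against Ctrl.

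LUCAT1 had the most negative value of all members. Its counts were 128, 108 and 130 in CRLM1-OE, 423, 341 and 294 in Ctrl and 412, 324 and 362 in Anti. Every CRLM1-OE library lay below every other library, and Ctrl and Anti overlapped. The log2 fold change of CRLM1-OE was -1.63 (SE 0.108, edgeR adjusted p = 2.72e-50) against Ctrl and -1.65 (SE 0.106, adjusted p = 8.89e-53) against Anti. Anti differed from Ctrl by -0.01 (SE 0.0858, adjusted p = 0.97). ADGRV1, the protein-coding gene that LUCAT1 overlaps on the other strand, had a mean of 34.4 counts and a log2 fold change of 0.23 (SE 0.263, adjusted p = 0.556) against Ctrl.

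RP11-7K24.3 had the highest value of all members in both comparisons with CRLM1-OE. It was measured at 335, 270 and 306 counts in CRLM1-OE, 83, 66 and 65 in Ctrl and 94, 56 and 53 in Anti, so CRLM1-OE stood apart and the other groups overlapped. The log2 fold change of CRLM1-OE was 1.98 (SE 0.126, edgeR adjusted p = 1.12e-53) against Ctrl and 2.10 (SE 0.127, adjusted p = 2.14e-60) against Anti. Its level was 3.47 ± 0.0322 FPKM for CRLM1-OE, 0.81 ± 0.01 for Ctrl and 0.777 ± 0.211 for Anti. Its identifier, on chromosome 6, had no match in GENCODE 44.

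RP11-102K13.5, on chromosome 13 and also without a match, had 7.84, 7.59 and 8.33 CPM in CRLM1-OE, 4.39, 3.27 and 3.27 in Ctrl and 3.85, 3.67 and 4.32 in Anti. It rose by a log2 fold change of 1.11 (SE 0.109, edgeR adjusted p = 4.58e-23) against Ctrl and 1.01 (SE 0.106, adjusted p = 1.24e-20) against Anti. The second value lay at the 2-fold limit and fell below it without CRLM1-OE replicate 3, Anti replicate 1 or Anti replicate 2, the lowest value being 0.971.

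The other members called upward against Ctrl were RP11-18H21.1 (LINC02273), RP11-159D12.2 and LINC00265. RP11-18H21.1 had 5.79, 5.53 and 5.27 CPM in CRLM1-OE, 2.86, 2.68 and 2.43 in Ctrl and 3.28, 2.45 and 2.70 in Anti, and its log2 fold change against Ctrl was 1.05 (SE 0.129, edgeR adjusted p = 2.75e-15). RP11-159D12.2 had 16.3, 16.9 and 16.8 CPM in CRLM1-OE, 8.65, 7.64 and 7.61 in Ctrl and 9.19, 10.6 and 11.3 in Anti, with log2 fold changes of 1.06 (SE 0.0768, adjusted p = 1.28e-41) against Ctrl and 0.69 (SE 0.0716, adjusted p = 5.85e-21) against Anti. In both, the 3 CRLM1-OE libraries lay above all 6 others. LINC00265 had 3.51, 4.31 and 5.20 CPM in CRLM1-OE, 1.80, 2.01 and 2.34 in Ctrl and 2.02, 2.53 and 2.13 in Anti, with a log2 fold change of 1.09 (SE 0.144, adjusted p = 3.32e-13) against Ctrl. CRLM1-OE replicate 3 was its highest library, and without it the value was 0.936 and the 2-fold call was lost.

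LINC01405 was the other member called downward against Ctrl. It had 1.19, 2.05 and 1.51 CPM in CRLM1-OE, 3.33, 3.53 and 3.06 in Ctrl and 2.84, 3.81 and 2.79 in Anti, the CRLM1-OE libraries being lower than all others. The log2 fold changes of CRLM1-OE were -1.08 (SE 0.162, edgeR adjusted p = 1.75e-10) and -1.01 (SE 0.161, adjusted p = 2.52e-09). Without CRLM1-OE replicate 1, the lowest library, the first was -0.896 and the second -0.827, and neither was called at 2-fold. Against Anti the 2-fold call was kept in 4 of 12 alternative fits.

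**Figure D3:**
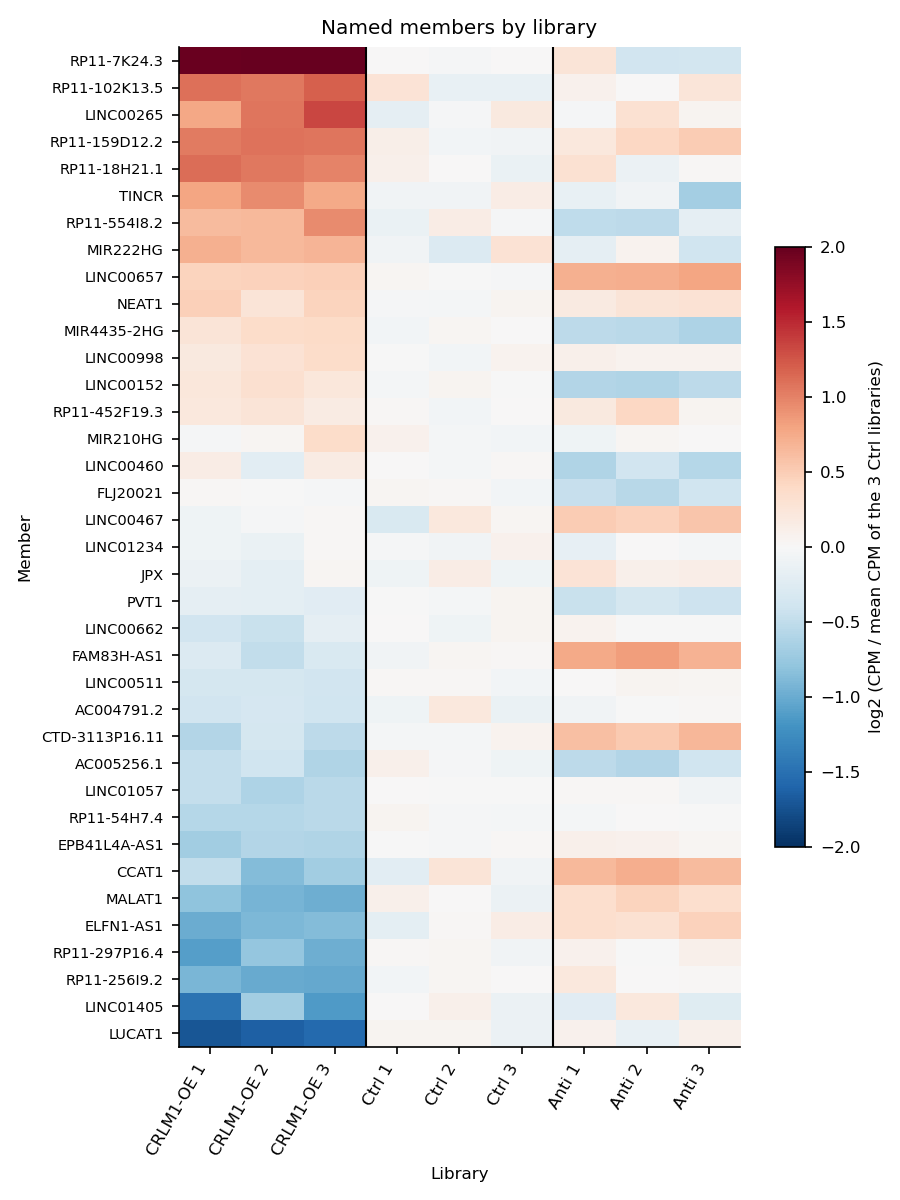
log2 ratio of CPM to the mean of the 3 Ctrl libraries (colour) for the 37 named members (rows, ordered by the log2 fold change of CRLM1-OE against Ctrl) in each of the 9 libraries (columns). LUCAT1 was low and RP11-7K24.3 high in the 3 CRLM1-OE libraries alone, whereas FAM83H-AS1 and NORAD (LINC00657) were highest in the 3 Anti libraries.

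Among the nuclear RNAs, MALAT1 and NEAT1 moved in opposite directions against Ctrl. MALAT1, which locates to nuclear speckles, had 27.3, 25 and 24.3 CPM in CRLM1-OE, 51.0, 47.9 and 44.2 in Ctrl and 60.2, 64.9 and 60.2 in Anti. The 3 groups did not overlap, with CRLM1-OE lowest and Anti highest. It fell, with log2 fold changes in CRLM1-OE of -0.90 (SE 0.0463, edgeR adjusted p = 8.29e-82) against Ctrl and -1.27 (SE 0.0427, adjusted p = 6.1e-191) against Anti, and was higher in Anti than in Ctrl by 0.35 (SE 0.0389, adjusted p = 2.11e-17). In GENCODE 44, 83.7% of the MALAT1 exon is covered by exons on the other strand, among them its antisense transcript TALAM1, and whether the counting used strand was not stated.

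NEAT1, the scaffold of paraspeckles, had 78.2, 67.1 and 76.3 CPM in CRLM1-OE, 55.3, 54.7 and 58.3 in Ctrl and 63.2, 67.2 and 68.3 in Anti. CRLM1-OE lay above Ctrl in every library and overlapped Anti. The log2 fold change was 0.40 (SE 0.0366, edgeR adjusted p = 1.13e-26) against Ctrl and 0.16 (SE 0.0334, adjusted p = 4.19e-06) against Anti. The ratio of NEAT1 to MALAT1 counts, which does not depend on the scaling of a library, was 2.86, 2.68 and 3.13 in CRLM1-OE, 1.08, 1.14 and 1.32 in Ctrl and 1.05, 1.04 and 1.14 in Anti. Both genes lie on the forward strand of chromosome 11, at 65422774 to 65445540 and 65497640 to 65508073. Counts are per gene in poly(A)-selected RNA, so the 9 transcripts of NEAT1 in GENCODE 44 are not told apart.

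JPX, an activator of X inactivation, was the third member of the nuclear list, which held 8 genes in all. Its means were 4.63 ± 0.388 CPM for CRLM1-OE, 4.92 ± 0.487 for Ctrl and 5.53 ± 0.342 for Anti (SD, n = 3). The difference of CRLM1-OE from Ctrl, a log2 fold change of -0.08, did not pass (SE 0.116, edgeR adjusted p = 0.631), nor did that from Anti (-0.25, SE 0.111, adjusted p = 0.0581), which passed in 3 of 12 alternative fits. Exons on the other strand, those of FTX, cover 52.4% of its own.

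NORAD, whose elements are printed above, was at 117, 118 and 119 CPM in CRLM1-OE, 87.7, 85.2 and 84.3 in Ctrl and 140, 142 and 148 in Anti. The groups did not overlap, and CRLM1-OE lay between the controls. It was higher in CRLM1-OE than in Ctrl by a log2 fold change of 0.46 (SE 0.0312, edgeR adjusted p = 6.73e-48), lower than in Anti by -0.27 (SE 0.0266, adjusted p = 8.06e-24), and higher in Anti than in Ctrl by 0.71 (SE 0.0301, adjusted p = 1.16e-120). Its direction in CRLM1-OE therefore differed between the controls. PVT1 had the opposite order, with 124, 123 and 120 CPM in CRLM1-OE, 140, 137 and 146 in Ctrl and 104, 110 and 106 in Anti. Its log2 fold change was -0.20 (SE 0.029, adjusted p = 3.33e-11) against Ctrl and 0.20 (SE 0.0277, adjusted p = 1.32e-12) against Anti. With library totals as the scaling, the first was -0.06 and did not pass (adjusted p = 0.109).

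CCAT1, a MYC enhancer RNA named for its expression in colon cancer, lies with PVT1 on chromosome 8 and they were the only members from a list of 14 lncRNAs around MYC. It had 2.53, 1.94 and 2.20 CPM in CRLM1-OE, 3.05, 4.23 and 3.36 in Ctrl and 5.56, 5.88 and 5.52 in Anti, without overlap between the groups. It fell, with log2 fold changes in CRLM1-OE of -0.65 (SE 0.147, edgeR adjusted p = 4.1e-05) against Ctrl and -1.33 (SE 0.131, adjusted p = 2.55e-23) against Anti.

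**Figure D4:**
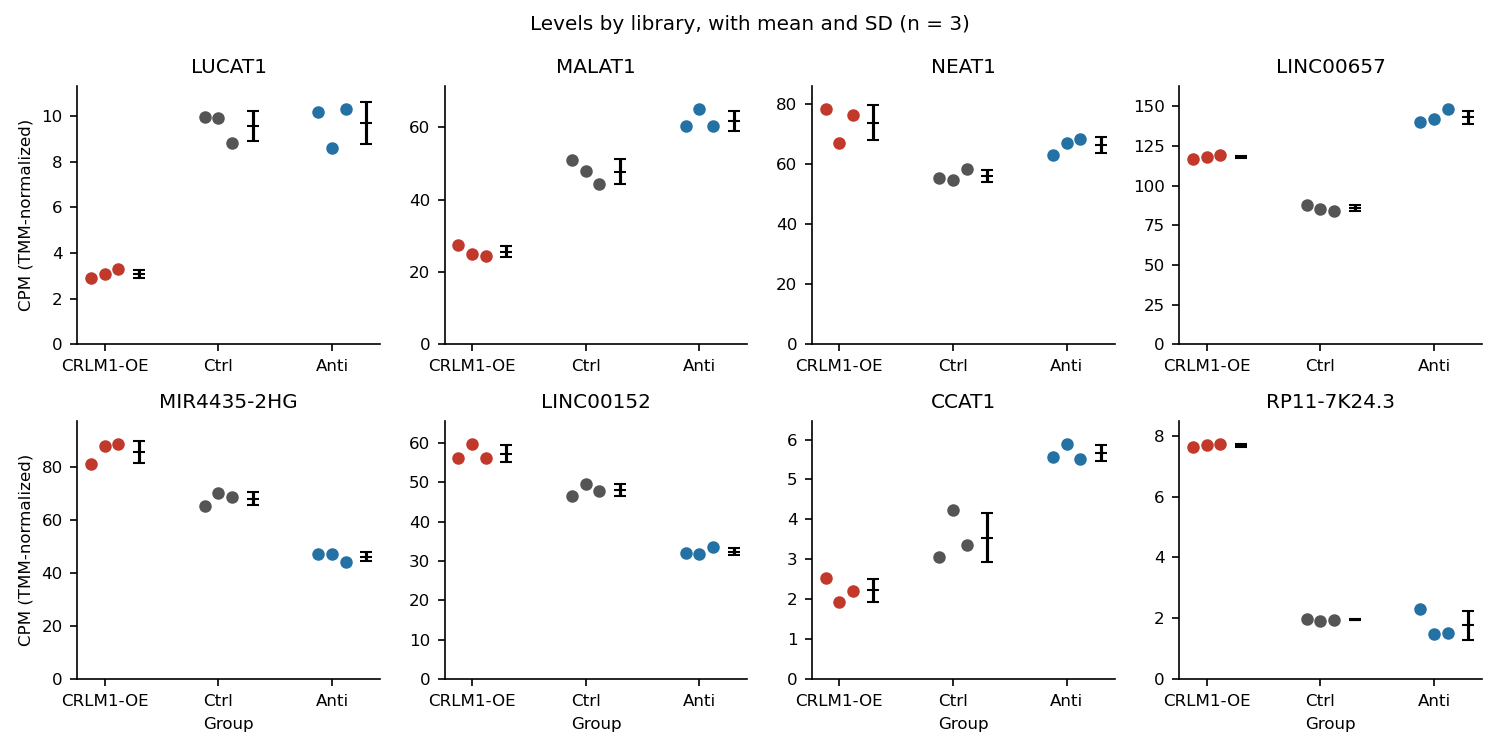
CPM after TMM scaling (y axis, from 0) of 8 members in each library of the 3 groups (points), with the mean and SD of 3 libraries beside them (black). MALAT1, NORAD (LINC00657), MIR4435-2HG, LINC00152 and CCAT1 stood at a separate level in each group, LUCAT1 and RP11-7K24.3 differed between CRLM1-OE and both controls, and NEAT1 overlapped between CRLM1-OE and Anti.

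Of the hosts of microRNAs, MIR4435-2HG and CYTOR had the same order of groups. MIR4435-2HG had 81.0, 87.7 and 88.5 CPM in CRLM1-OE, 65.4, 70.1 and 68.5 in Ctrl and 47.1, 47.0 and 44.3 in Anti. CYTOR, which is linked to proliferation in several carcinomas, had 56.2, 59.6 and 56.0, then 46.6, 49.6 and 47.7, then 31.9, 31.7 and 33.5 CPM. Both were highest in CRLM1-OE and lowest in Anti, with no overlap. The log2 fold changes of CRLM1-OE were 0.34 (SE 0.0344, edgeR adjusted p = 2.55e-21) and 0.26 (SE 0.0396, adjusted p = 7.89e-10) against Ctrl, and 0.89 (SE 0.0349, adjusted p = 1.34e-142) and 0.83 (SE 0.0414, adjusted p = 8.1e-87) against Anti. The ratio of CYTOR to MIR4435-2HG counts was 0.669 ± 0.0317 for CRLM1-OE, 0.706 ± 0.00852 for Ctrl and 0.702 ± 0.0456 for Anti (SD, n = 3). As copies that share sequence, they are not independent measurements.

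MIR222HG, the host of miR-221 and miR-222, had 3.74, 3.59 and 3.68 CPM in CRLM1-OE, 2.17, 1.90 and 2.79 in Ctrl and 2.02, 2.40 and 1.74 in Anti. CRLM1-OE was higher than every other library, with log2 fold changes of 0.69 (SE 0.145, edgeR adjusted p = 1.04e-05) against Ctrl and 0.84 (SE 0.146, adjusted p = 4.49e-08) against Anti. MIR210HG, the host of the hypoxia microRNA miR-210, did not pass in either (0.13, SE 0.103, adjusted p = 0.397, and 0.15, SE 0.102, adjusted p = 0.276). Its highest library was CRLM1-OE replicate 3 at 7.59 CPM, with the other 8 between 5.53 and 6.26. The names that start with MIR and end in HG, with LINC00478, came to 23 in the table, of which 3 were members.

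Of 11 lncRNAs listed as targets of p53 or as responsive to stress or hypoxia, 4 were members: LUCAT1, NEAT1, PVT1 and MIR210HG. Against Ctrl 1 rose and 2 fell, and against Anti 2 rose and 1 fell. Among genes with 100 counts, 28.8% rose and 39.1% fell against Ctrl, and 33.8% and 40.4% against Anti, so that most genes of this level were called, on the list or not.

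Of 23 lncRNAs listed from studies of colorectal and other epithelial tumours, 19 were in the table and 9 were members. Against Ctrl 3 rose (MIR4435-2HG, CYTOR and TINCR) and 4 fell (LUCAT1, CCAT1, LINC00511 and LINC00662), with a median log2 fold change of -0.07 beside 0.02 for all genes tested. The same background of 28.8% and 39.1% applies to these counts. Against Anti 4 rose and 4 fell, LINC00460 being the added one. LINC00460 had 13.1, 10.2 and 13.2 CPM in CRLM1-OE, 11.8, 11.5 and 12 in Ctrl and 7.78, 9.0 and 7.96 in Anti. CRLM1-OE overlapped Ctrl and lay above Anti (0.57, SE 0.0814, edgeR adjusted p = 1.63e-11). LINC00511 and LINC00662 fell by smaller amounts, with log2 fold changes of -0.36 (SE 0.0423) and -0.33 (SE 0.0731) against Ctrl and -0.39 (SE 0.0408) and -0.34 (SE 0.0719) against Anti. LINC01234 was between 19.2 and 22.9 CPM in all 9 libraries and passed in neither (-0.07, SE 0.059, adjusted p = 0.453 against Ctrl).

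Several members have been reclassified since the annotation used for counting. Of the 116 matched in GENCODE 44, 101 are lncRNAs, 6 are protein-coding genes, 8 are pseudogenes and BCYRN1 is a small cytoplasmic RNA gene. TINCR, an RNA of epidermal differentiation now listed as protein-coding, had 7.66, 8.50 and 7.49 CPM in CRLM1-OE, 4.21, 4.20 and 4.89 in Ctrl and 4.0, 4.21 and 2.76 in Anti. CRLM1-OE was above every other library, with log2 fold changes of 0.83 (SE 0.105, edgeR adjusted p = 1.97e-14) against Ctrl and 1.1 (SE 0.107, adjusted p = 1.53e-23) against Anti. Anti replicate 3 was its lowest library, and without it the second value was 0.936, below 2-fold.

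LINC00998, now SMIM30, encodes a small membrane protein. It had 15.6, 16.7 and 17.6 CPM in CRLM1-OE, 13.5, 13.1 and 14.3 in Ctrl and 14.6, 14.3 and 14.3 in Anti, and rose against Ctrl by 0.29 (SE 0.0682, edgeR adjusted p = 0.000141). Against Anti it rose by 0.21 (SE 0.0665, adjusted p = 0.006), a call that was lost without CRLM1-OE replicate 3 (adjusted p = 0.0564). LINC00467, the other member from a list of 8 lincRNAs found to hold a small protein, stood at 6.65 ± 0.277 CPM for CRLM1-OE, 6.77 ± 1.22 for Ctrl and 9.67 ± 0.322 for Anti. It was lower in CRLM1-OE than in Anti (-0.54, SE 0.0907, adjusted p = 1.69e-08), and the difference from Ctrl did not pass (-0.01, SE 0.0993, adjusted p = 0.947).

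FAM83H-AS1, now the protein-coding gene IQANK1, had 14.7, 12.6 and 14.4 CPM in CRLM1-OE, 17.0, 18.3 and 18.0 in Ctrl and 29.9, 31.8 and 28.8 in Anti. The groups did not overlap, and the Anti libraries stood highest. Its log2 fold changes were -0.35 (SE 0.0668, edgeR adjusted p = 1.29e-06) and -1.11 (SE 0.0581, adjusted p = 1.36e-79) in CRLM1-OE against Ctrl and Anti, and 0.74 (SE 0.0568, adjusted p = 5.54e-37) in Anti against Ctrl. FAM83H, which it overlaps on the other strand, had -0.59, -1.44 and 0.82. No exon of FAM83H overlaps an exon of the member in GENCODE 44.

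LINP1 (RP11-554I8.2), a lncRNA of DNA end joining, had 5.33, 5.39 and 6.61 CPM in CRLM1-OE, 3.12, 3.79 and 3.39 in Ctrl and 2.42, 2.40 and 3.02 in Anti. It rose by 0.76 (SE 0.12, edgeR adjusted p = 1.89e-09) against Ctrl and 1.15 (SE 0.126, adjusted p = 3.83e-19) against Anti. Anti was lower than Ctrl by -0.42 (SE 0.144, adjusted p = 0.0171), which did not pass in 5 of 12 alternative fits.

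A further 4 members without a function given here were called downward against Anti. ELFN1-AS1 had 6.25, 6.68 and 6.86 CPM in CRLM1-OE, 10.9, 12.7 and 13.9 in Ctrl and 15.7, 15.4 and 17.2 in Anti, with log2 fold changes of -0.92 (SE 0.0871) and -1.28 (SE 0.0799). The groups did not overlap, with Anti highest. CTD-3113P16.11 had the same order of groups at 4.23 ± 0.353, 5.91 ± 0.284 and 8.94 ± 0.433 CPM (SD, n = 3), with -0.49 (SE 0.113) and -1.08 (SE 0.101). In RP11-256I9.2 and RP11-297P16.4 the controls lay together. RP11-256I9.2 had 7.43 ± 0.304, 14.7 ± 0.394 and 15.5 ± 1.27 CPM, with -0.98 (SE 0.0807) and -1.06 (SE 0.0783). RP11-297P16.4 had 8.39 ± 0.981, 16.2 ± 0.725 and 16.8 ± 0.623 CPM, with -0.95 (SE 0.0766) and -1.01 (SE 0.0749). The last kept its 2-fold call against Anti in 6 of 12 alternative fits and the one before it in 10.

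Among the members with the highest FPKM, EPB41L4A-AS1, the host of the small nucleolar RNA SNORA13, fell without reaching 2-fold. It had 39.5, 42.6 and 42.3 CPM in CRLM1-OE, 63.8, 63.3 and 65.2 in Ctrl and 68.9, 67.7 and 65.6 in Anti, with log2 fold changes of -0.63 (SE 0.0398, edgeR adjusted p = 7.06e-55) and -0.70 (SE 0.0377, adjusted p = 1.46e-75). Exons of EPB41L4A on the other strand cover 51.2% of its exons. RP11-54H7.4 had 79.4, 78.9 and 80.6 CPM in CRLM1-OE, 122, 116 and 114 in Ctrl and 114, 118 and 117 in Anti, with -0.56 (SE 0.0316, adjusted p = 3.56e-69) and -0.55 (SE 0.0293, adjusted p = 1.17e-75). LINC01057 had -0.54 in both (SE 0.0476 and 0.0465). In these 3 the CRLM1-OE libraries were below all 6 others.

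AC004791.2 fell by less, with -0.37 (SE 0.0923, edgeR adjusted p = 0.000302) and -0.35 (SE 0.0914, adjusted p = 0.00053). FLJ20021 had 12 ± 0.134 CPM for CRLM1-OE, 12 ± 0.403 for Ctrl and 8.69 ± 0.467 for Anti, and AC005256.1 had 4.80 ± 0.347, 6.73 ± 0.436 and 4.76 ± 0.321 (SD, n = 3). In each of these, CRLM1-OE differed from a single control. RP11-452F19.3, at the 100-count limit, passed in no comparison (adjusted p = 0.36, 0.96 and 0.436).

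The genes next to the members were read for the position of each member. In GENCODE 44, 34 of the 116 matched members overlapped the span of a protein-coding gene, 27 lay within 10 kb of such a gene and 55 lay farther away, and 21 started within 2 kb of a start on the opposite strand. In 28, over 20% of the exon length was covered by exons of another gene, in 18 from the opposite strand. The longest transcript had a median length of 2494 nt, from 138 to 22743, and a single exon in 30. For some members now listed as pseudogenes these lengths are not those of the genes counted. RP11-384K6.6 (138 nt) had 9.71 CPM but 1.96 FPKM, and TPTEP1 (213 nt) had 8.015 CPM but 0.661 FPKM, so their counted gene models were longer.

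Log2 fold changes of members and of their nearest protein-coding genes were weakly related. Pearson's r across genes was 0.104 over 113 pairs in CRLM1-OE against Ctrl, 0.17 over 116 in CRLM1-OE against Anti and 0.0607 over 113 in Anti against Ctrl. Over the 80 pairs in which the neighbour also had a mean of at least 100 counts, a limit chosen after seeing the data, r was 0.194 in CRLM1-OE against Ctrl, 0.228 in CRLM1-OE against Anti and 0.0684 in Anti against Ctrl. The same libraries measure both genes of a pair, and genes are not replicates. For the 19 of these pairs with divergent starts within 2 kb, r was 0.557 in CRLM1-OE against Ctrl and -0.0105 in CRLM1-OE against Anti. It was 0.114 in Anti against Ctrl. The same sign was seen in 10, 11 and 11 of the 19 pairs. Against Ctrl, 46 of the 80 pairs had the same sign, and where both genes passed the test 22 had the same sign and 9 opposite signs. The pairs below were picked for their same sign after the values were seen, and they do not stand for the other pairs. FBXW7, a tumour suppressor at 210387 bp from RP11-18H21.1, had 0.80 (SE 0.0709) where the member had 1.05 against Ctrl. SAFB2 beside TINCR had 0.37 (SE 0.0524) where the member had 0.83. MYL2 and LINC01405 had -0.51 (SE 0.208) and -1.08.

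**Figure D5:**
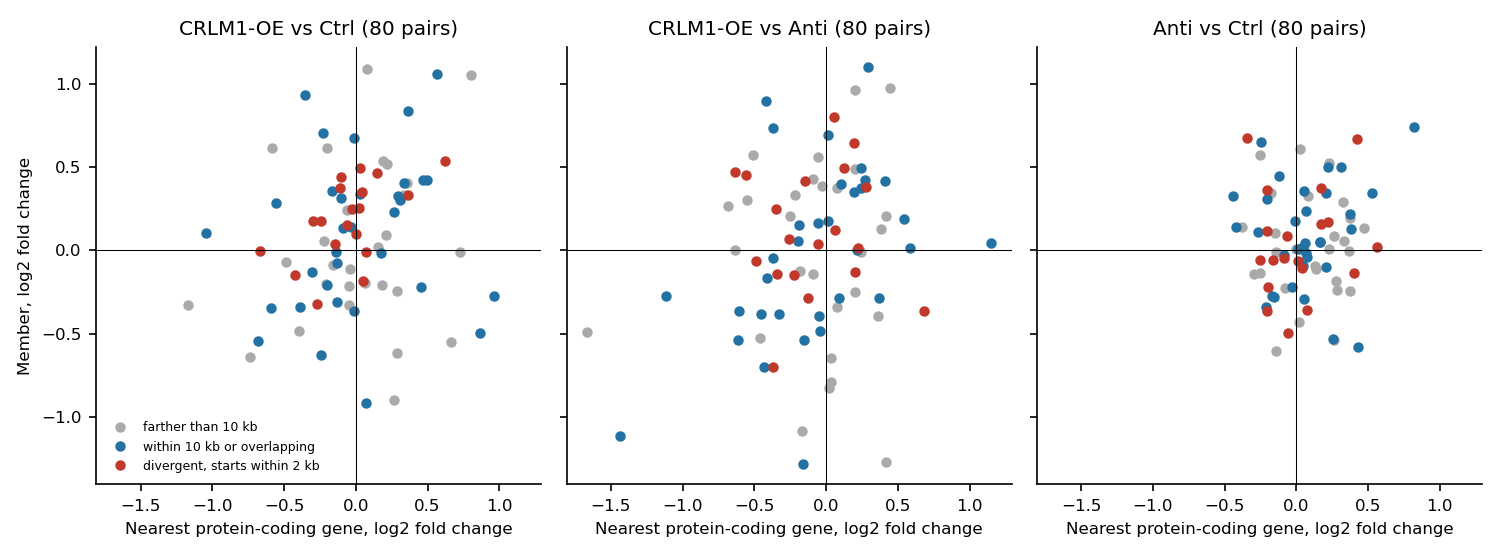
log2 fold change of each member (y axis) against that of its nearest protein-coding gene (x axis) in the 3 comparisons, for the 80 pairs in which the neighbour had a mean of at least 100 counts. Points are coloured by position, with divergent starts within 2 kb in red, other neighbours within 10 kb in blue and farther ones in grey, and r across all points was 0.194, 0.228 and 0.0684.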

How the data were processed

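RNA selected by poly(A) from 9 HCT116 samples was sequenced by the authors as 151 nt paired-end reads. Per the methods of the authors, reads were trimmed, those under 16 nt were discarded, and TopHat2 placed the others on GRCh38 with up to 4 mismatches. The deposited counts are whole numbers of uniquely placed reads for each gene of Gencode version 23, as they came. The deposited FPKM values were scaled by the authors to gene length and library. Use of strand in counting was not stated.

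Samples were grouped by their labels. Counts were tested with edgeR 4.0.16 in R 4.3.3 (TMM, glmQLFit, glmQLFTest) on the 6 libraries of each comparison, for every gene with at least 1 count, and the SE is the log2 fold change over the root of F. CPM values use TMM factors. Alternatives were RLE factors, library totals, filterByExpr, DESeq2 1.42.0, a fit of all 9 libraries, a replicate block and each library left out, and the tests were checked on simulated data. Total counts of 33302292 to 44514692 per library set the precision. Positions and transcripts come from GENCODE 44 (116 of 124 identifiers matched, on GRCh38), microRNAs and promoters from RefSeq (GRCh38.p14), and figures were drawn with matplotlib 3.10.9.

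Members and gene lists were chosen with earlier results of these data known. The 37 named members are those in the lists, those called at 2-fold (at most 12 per direction), the 10 of highest FPKM and the 3 just inside the limit; for called members the nearest protein-coding gene was also eligible. No member had fewer than 52 counts in a library. The value of 1 neighbouring gene is not reported here.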

Additional observations from a re-analysis of the deposited data

How the results depend on the processing

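None of the members called by adjusted p (73, 87 and 50 in the 3 comparisons) changed sign in any of 12 alternatives, while 19 of 51, 12 of 37 and 35 of 74 members that were not called did in at least 1. Among the 37 named members, 9 values passed the adjusted p only under an alternative and 7 lost it, 5 of these for LINP1 in Anti against Ctrl. With library totals as the scaling, the 2-fold calls were 9 upward and 1 downward against Ctrl and 7 upward and 6 downward against Anti. The medians of the members were then 0.21 (CRLM1-OE against Ctrl), 0.108 (CRLM1-OE against Anti) and 0.118 (Anti against Ctrl), since no factor corrects the composition of a library. Leaving out a library gave medians from 0.0315 to 0.116 in CRLM1-OE against Ctrl and from 0.000681 to 0.0387 in Anti against Ctrl, and the fit of all 9 libraries gave 0.0384 for the latter. Restricting to members with at least 100 counts in every group, chosen after seeing the data, left 102 members. At 2-fold, 2 upward (1.96%) and 1 downward (0.98%) were called against Ctrl, beside 1.31% and 0.701% of genes with 100 counts. Against Anti, 2 upward (1.96%) and 7 downward (6.86%) were called, beside 1.81% and 2.51%. With neighbours within 10 kb alone, r in CRLM1-OE against Anti was 0.332 over 61 pairs, in place of 0.17 over all 116, and the cause was not tested. Without PVT1 and NORAD, the members' share differed from Ctrl by 0.008 percentage points in CRLM1-OE, in place of 0.0118, and by 0.00947 in Anti, in place of 0.0131. These are shares of library totals, and the order of CRLM1-OE and Ctrl depends on the scaling.

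Replicate numbers did not pair the libraries: over 12941 genes, deviations of same-numbered libraries had a mean correlation of 0.00219 (-0.0749 to 0.0782, 9 pairs). With the replicate block, 2-fold calls were 5 upward and 2 downward against Ctrl and 4 and 8 against Anti. DESeq2 gave 5 and 2, and 4 and 7. The larger replicate spread of members near 100 counts limits what can be read from changes near 2-fold. The 8 members without a match in GENCODE 44 have no position here.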

Other observations

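Some members outside the naming rule, chosen after their values were seen, are given by their values. BCYRN1 had 200, 191 and 381 counts in CRLM1-OE, 148, 109 and 119 in Ctrl and 182, 130 and 134 in Anti. CRLM1-OE replicate 3 lay far above the other libraries. The name stands for a polymerase III transcript known from neurons, with a length of 200 nt in the later annotation used here. The gene counted under this name had a mean of 4.63 CPM but 0.306 FPKM over all libraries, so its counted gene model was longer. These counts therefore cannot be read as the level of the 200 nt RNA. MAPKAPK5-AS1 had 24.4 ± 0.17 CPM for CRLM1-OE, 17.7 ± 1.67 for Ctrl and 14.1 ± 0.106 for Anti (SD, n = 3). Its log2 fold change was 0.46 against Ctrl and 0.80 against Anti. CTD-3252C9.4 (MIR23AHG), the host of miR-23a, miR-27a and miR-24, rose by 0.42 against Ctrl (edgeR adjusted p = 0.00113) and had 5.63 ± 0.573 CPM for CRLM1-OE, 4.20 ± 0.202 for Ctrl and 4.0 ± 0.441 for Anti. BAIAP2-AS1 was highest in Anti, at 11.7 ± 1.18 CPM against 9.05 ± 0.315 in CRLM1-OE and 7.17 ± 0.452 in Ctrl.

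The C-rich motif CCTCCC, of the kind bound by hnRNPK, occurred on the transcript strand of 70.7% of the 116 members with a sequence and of 48.5% of 18824 lncRNA genes, at 1.01 and 0.786 matches per kb. The members were chosen for their level, and no test was made of the difference.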
